A study of Sus scrofa with 48 samples.

Results

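The blood transcriptome of 24 pigs of the high residual feed intake (RFI) line was compared between 12 pigs fed a high fat and high fiber (HF) diet and 12 pigs fed a low fat and low fiber (LF) diet. These 24 pigs were all those of the 48 pigs of the series whose strain was RFIpl, the high RFI line, and the remaining 24 pigs belonged to the low RFI line, RFIneg. RFI is the feed that an animal eats beyond what its growth and maintenance predict, so that high RFI animals are the less feed efficient ones. All pigs were purebred French Large White castrated males from a divergent selection experiment, had free access to feed, and gave whole blood at 132 days of age. Each pig was 1 biological replicate and 1 single-colour array, and no other diet was included. The question was whether the energy source in the diet was followed by differences in blood RNA within the line selected for a high RFI.

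Whole blood RNA comes from neutrophils, lymphocytes, monocytes, platelets and young red cells together. Neutrophils carry granules that are filled during their maturation in bone marrow. Transcripts of granule proteins, such as the cathelicidins, lactotransferrin and haptoglobin, are made mainly in the immature stages and decline in mature circulating cells, while the S100 calgranulins remain abundant there. Cathelicidins are precursors of antimicrobial peptides, and the pig has a family of them with a conserved precursor part and variable peptides, including PR39, PMAP-23, PMAP-36 and the protegrins. Dietary fat reaches leukocytes as fatty acids and lipoprotein lipids: fatty acid receptors of the PPAR family induce genes of fatty acid oxidation such as CPT1A, and the sterol receptor LXR, encoded by NR1H3, induces the cholesterol exporter ABCA1 and the ubiquitin ligase MYLIP.

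A value is the log2 of the spot intensity minus the median of its array, so that 0 is the median of the retained spots. Over the 24 arrays of the high RFI line, 99.2% of the readings at the 37113 retained spots were well above background and 0 non-control spots were saturated. The deposited column of HF replicate 1 repeated 1 value over 37090 spots, and this pig was rebuilt from its scanner file. Pairwise correlations of the 24 arrays ran from 0.935 to 0.995. The arrays of LF replicates 9 and 11 stood apart on the first principal component (39.0 and 50.3, against -32.1 to 28.8 in the HF group), with median correlations of 0.971 and 0.968 to the other arrays. The arrays lay on 6 slides scanned on 3 days, with 6, 4 and 2 pigs per diet on each day. HBA and HBB of red cells, CXCR2 of neutrophils, CD3E of T cells, CD79A of B cells, CD14 of monocytes, NKG7 of cytotoxic cells and PPBP of platelets were well above background on 24 of 24 arrays.

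The methods called a probe DE where its uncorrected P was under 0.01 and its fold change (FC) exceeded 1.1. By this criterion 135 of 37113 probes (0.364%) were DE between the diets by limma, 77 overexpressed (0.207%) and 58 underexpressed (0.156%) in pigs fed the HF diet. No probe passed a Benjamini-Hochberg (BH) adjusted P of 0.05 (0 probes, lowest adjusted P 0.161), while 988 probes (2.66%) had an uncorrected P under 0.05, 440 higher (1.19%) and 548 lower (1.48%). The analysis of variance without the empirical Bayes step also left 0 probes after adjustment, with 1003 under 0.05. The absolute FC of the 135 probes ran from 1.13 to 5.22 with a median of 1.29, and 39 had an FC of 1.5 or more, of which 35 were overexpressed with the HF diet and 4 underexpressed. A gene symbol was found for 86 of these probes, which stood for 61 genes.

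Averaging the probes of each gene gave 10151 genes. Of these, 40 (0.394%) passed the criterion, 28 higher (0.276%) and 12 lower (0.118%) with the HF diet, with a median absolute FC of 1.25. After BH adjustment 0 genes remained, the lowest adjusted P was 0.853, and 282 genes (2.78%) had an uncorrected P under 0.05, 150 higher (1.48%) and 132 lower (1.3%). Every P given below for a gene is thus the uncorrected P of limma, with an adjusted P of at least 0.853. The numbers rested partly on single pigs. Without LF replicate 9, 82 probes and 21 genes passed, and without LF replicate 2, 26 genes passed. Without LF replicate 1, 263 probes passed, and without LF replicate 10, 63 genes passed. The split by direction was not stable. Without HF replicate 5, 66 of 157 probes and 19 of 40 genes were higher, and without HF replicate 11, 69 of 185 probes and 23 of 48 genes. With slide as a block, 97 of 201 probes and 31 of 56 genes were higher, and with replicate number as a block 121 of 259 probes and 37 of 79 genes. The signal used also moved it: on background-corrected signals 61 of 153 probes were higher when centred on the median and 63 of 163 when centred on the 75th percentile, and after normexp and quantile normalization 53 of 167. With the column of HF replicate 1 as deposited, 90 of 98 probes were higher, and the median over all genes stood at 0.22, against 0.012. Under these 4 choices of signal 26 of 45, 25 of 44, 17 of 36 and 26 of 27 genes were higher.

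The gene with the largest difference was PMAP-23, read by 1 probe, followed by PR39, read by a pair of probes. The probes of the cathelicidins end near the end of their transcripts, where members of the family resemble each other, so the last 30 of the 60 bases of each probe are shown here, 5′ to 3′. Capitals mark the longest run of 15 or more bases shared with the PMAP-23 probe.
PMAP-23: aggactgGAAAAATAAATTCTTGTGAAAGC
PR39, the probe that shares a run: gaaccgtGAAAAATAAATTCTTGTGAAAGC
PR39, the other probe: tgagcccagggaaagtcctaggatcttatt
NPG4, the probe with the longer run: cccgcatctgtcAAATAAATTCTTGTGAAA
NPG4, the probe with the shorter run: aggcccgcatctgtcAAATAAATTCTTGTG
NPG4, the third probe: gcatctgctttgcccaggcccgcatctgtc
PMAP-36: ctgagaaataaattctatgaaagcttcttc
The shared run is 23 bases in PR39 and 18 and 15 bases in NPG4, a protegrin gene, so that these probes may each read RNA of more than 1 cathelicidin and the genes are not independent readings. The differences were also positive at probes with no such run in their last 30 bases. The other bases of the probes were not compared. For PR39, the difference was 2.38 ± 0.76 (SE) at the probe with the run and 1.92 ± 0.82 at the other. For NPG4, it was 1.69 ± 0.70 and 1.67 ± 0.70 at the probes with a run and 1.83 ± 0.73 at the third.

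PMAP-23 values in the 12 pigs fed the HF diet ran from -0.97 to 5.67 (median 1.35), and in the 12 pigs fed the LF diet from -2.35 to 2.55 (median -1.08). All 12 HF pigs lay above the LF median, and 4 lay above the highest LF pig. The mean was 1.57 ± 2.36 (SD, n = 12) with the HF diet and -0.70 ± 1.46 (SD, n = 12) with the LF diet, a difference of 2.26 ± 0.73 (SE) on the log2 scale, an FC of 4.80, with P = 0.00313. In bulk blood, more cells of a type and more RNA per cell cannot be told apart.

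PR39, a proline-rich antimicrobial peptide of pig neutrophils, ran from -1.44 to 7.15 (median 3.07) with the HF diet and from -2.17 to 4.11 (median 0.57) with the LF diet. The groups overlapped widely, with 9 of 12 HF pigs above the LF median and 4 above the highest LF pig. It was overexpressed with the HF diet by 2.15 ± 0.76 (SE), P = 0.00699. NPG4 ran from 2.74 to 8.72 (median 5.45) with the HF diet and from 2.10 to 6.72 (median 3.58) with the LF diet, and its difference of 1.73 ± 0.72 (SE), P = 0.0194 missed the criterion. PMAP-36 was spread differently: HF replicates 11 and 9 stood at 4.90 and 3.46, the other 10 HF pigs lay within -2.77 to -0.43, and the 12 LF pigs within -2.74 to -1.63. Its difference was 1.34 ± 0.84 (SE), P = 0.116.

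The differences in PMAP-23 and PR39 had the same sign on each scan day and were unequal in size. For PMAP-23 the difference was 1.1, 3.02 and 4.24 on days 1, 2 and 3 (P = 0.307, 0.0158 and 0.0249), and for PR39 1.27, 2.59 and 3.91 (P = 0.239, 0.0478 and 0.0311). On day 3, which held 2 pigs per diet, 1 of the HF pigs was replicate 11. The HF pigs 5, 11, 9, 3 and 10 were the 5 highest for PMAP-23, PR39 and NPG4. Leaving out HF replicate 5 gave the highest P of any pig left out, 0.010 for PMAP-23, just past the threshold, and 0.0216 for PR39. The PR39 call was kept in 14 of the 24 comparisons that left out 1 pig and the PMAP-23 call in 23.

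Some other genes that encode proteins of neutrophil granules were overexpressed with the HF diet at the same criterion. PGLYRP1, a peptidoglycan-binding protein of the specific granules, was read by 3 probes of a single sequence, so that these are repeats of 1 measurement:
PGLYRP1 probe: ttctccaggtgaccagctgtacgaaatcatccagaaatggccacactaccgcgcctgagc
It ran from 1.69 to 4.74 (median 2.97) in HF pigs and from 0.98 to 3.0 (median 2.12) in LF pigs, and 11 of 12 HF pigs lay above the LF median. The difference was 0.92 ± 0.29 (SE), P = 0.00277, an FC of 1.90, and it passed the criterion whichever of the 24 pigs was left out.

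HP, which encodes haptoglobin, a hemoglobin-binding acute phase protein that neutrophils also store in granules, was read by 7 probes of 6 sequences, of which the sequence present in a pair of probes is:
HP probe: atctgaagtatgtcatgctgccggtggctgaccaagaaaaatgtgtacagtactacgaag
All 7 probes passed the criterion, with differences from 0.72 to 0.95. HP values ran from -0.70 to 2.33 (median 0.38) with the HF diet and from -0.81 to 0.088 (median -0.45) with the LF diet. The LF pigs were close together and 8 of 12 HF pigs lay above the highest of them, while 3 HF pigs lay below the LF median. The difference was 0.87 ± 0.28 (SE), P = 0.00375, an FC of 1.82. It no longer passed without HF replicate 2, the highest pig at 2.33 (P = 0.0125), or without HF replicate 5.

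TCN1, transcobalamin 1, a vitamin B12 binder of specific granules, ran from -1.72 to 1.54 (median -0.51) with the HF diet and from -1.76 to -0.34 (median -1.37) with the LF diet, a difference of 0.91 ± 0.31 (SE), P = 0.00591. CRISP3, also a specific granule protein, ran from -1.11 to 3.36 (median 0.88) in HF pigs and from -1.23 to 1.01 (median 0.10) in LF pigs, a difference of 1.03 ± 0.36 (SE), P = 0.00629. For both, the HF group extended upward from a range it shared with the LF group. RETN, resistin, which human and pig leukocytes secrete, was higher by 0.90 ± 0.29 (SE), P = 0.00311, with 11 of 12 HF pigs above the LF median. The calls of TCN1 and CRISP3 ended when any of 7 and 8 single pigs were left out, among them HF replicates 5 and 11, and that of RETN ended only without HF replicate 5.

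**Figure D1:**
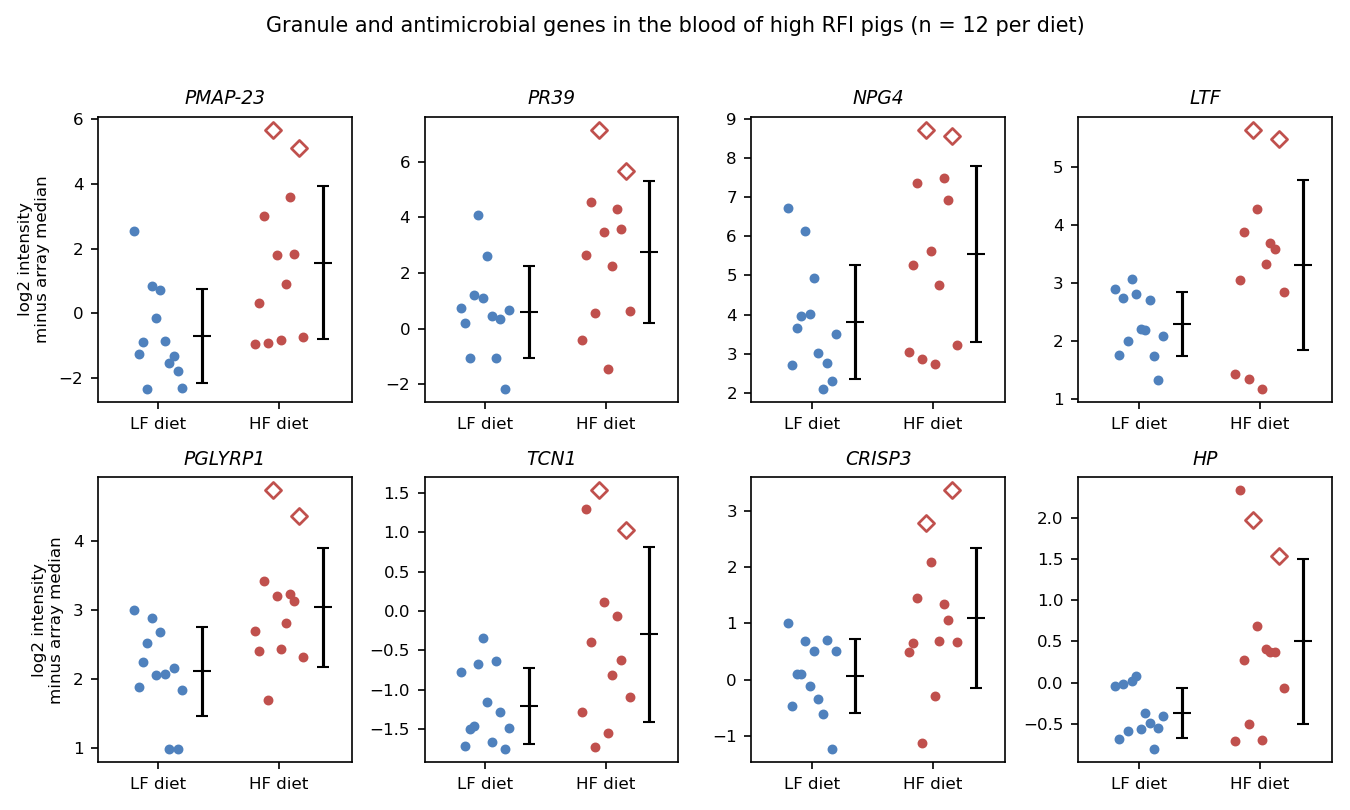
Log2 intensity minus the array median for 8 granule and antimicrobial genes in each high RFI pig, 12 per diet, with the mean and SD of each group beside the points. Open diamonds are HF replicates 5 and 11, which are among the 3 highest HF pigs in each panel.

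Of 34 genes listed for granule and antimicrobial proteins, 24 were measured. In 19 of 24 the mean was higher with the HF diet, 11 had P under 0.05 and all 11 of these were higher, against 1.48% of all genes. The criterion was passed by 5, against 0.276% of all genes higher. These 5, PMAP-23, PR39, PGLYRP1, HP and TCN1, and also LCN2 were given for diet by the study on these same samples. The counts of the granule list are thus partly fixed by that choice. CRISP3 and RETN are not in the granule list. The median difference of the list was 0.34, against 0.012 over all genes tested, and 0.31 to 0.38 on the other signal scales. Beyond those above, LCN2, lipocalin 2 of specific granules, differed by 0.84 (P = 0.0134), LTF, lactotransferrin, by 1.02 (P = 0.0285), AZU1, azurocidin of primary granules, by 1.12 (P = 0.0309), PRTN3, proteinase 3, by 0.58 (P = 0.0161) and NCF1, a subunit of the NADPH oxidase, by 0.24 (P = 0.0109). ELANE, neutrophil elastase, differed by 0.33 (P = 0.156) and LYZ, lysozyme, by 0.12 (P = 0.612). Averaged over the 24 genes, relative to the mean of the 24 pigs, HF pigs ran from -0.47 to 1.5 with a median of 0.23 and LF pigs from -0.68 to 0.18 with a median of -0.36. The lowest LF pig was replicate 11, and LF replicates 9 and 11, the arrays that stood apart, were the lowest of the 24 pigs for PGLYRP1, at 0.98 and 0.99.

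The pigs fed the HF diet were far from alike. HF replicates 5 and 11, at 1.5 and 1.44, had the highest list means, followed by HF replicate 9 at 0.78 and HF replicate 3 at 0.52, while HF replicates 1, 4, 7 and 12 were below 0. HF replicate 5 was among the 3 highest of the 24 pigs in 16 of the 24 genes and HF replicate 11 in 14. Without HF replicate 5, 8 of the 24 genes had P under 0.05. The median of the list stayed between 0.30 and 0.41 whichever pig was left out. Within scan days 1, 2 and 3 it was 0.42, 0.19 and 0.74. HF replicates 5 and 11 were on separate slides and scan days, and had 43160 and 43302 spots well above background, within the 41014 to 46727 of the 24 arrays. Their means over the mature neutrophil list were 0.63 and 0.26, those over the T cell list 0.074 and -0.063 and those over the NK and cytotoxic list 0.51 and 0.23. The part of the cell make-up of the blood in the granule difference was not tested.

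Of 13 genes of mature neutrophils measured, 11 had a higher mean with the HF diet, the median was 0.20, and 3 had P under 0.05, against 1.48% of all genes higher at that P, which were the calgranulins S100A8, S100A9 and S100A12, calcium-binding proteins abundant in the cytosol of neutrophils. S100A8 ran from 3.77 to 7.20 (median 5.52) in HF pigs and from 3.24 to 5.89 (median 4.64) in LF pigs. Its difference was 0.87 ± 0.38 (SE), P = 0.0270, that of S100A9 0.87 ± 0.39 (SE), P = 0.0315, and that of S100A12 0.92 ± 0.38 (SE), P = 0.0195. None of the 3 passed the criterion. CXCR2, the chemokine receptor of circulating neutrophils, had 0.19 ± 0.17 (SE), P = 0.270. Without HF replicate 2, the highest pig for this list at 0.83, its median was 0.14 and 1 gene had P under 0.05.

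CD5L, FABP4, BGN and EPOR are described together because the same pigs were at the top, so that this likeness was fixed by the choice. CD5L, a secreted protein of tissue macrophages, ran from -2.70 to 1.78 (median -2.22) with the HF diet and from -3.07 to -1.25 (median -2.65) with the LF diet. HF replicates 5, 11, 10, 3 and 9 were at 1.78, 1.25, 0.45, 0.31 and -0.23, the other 7 HF pigs lay at or below -2.10, and all LF pigs at or below -1.25. The difference was 1.38 ± 0.48 (SE), P = 0.00575, and a probe of CD5L was well above background on 20 of 24 arrays. It no longer passed when any of those 5 pigs was left out, with P = 0.0184 without HF replicate 5. FABP4, a fatty acid binding protein of adipocytes and macrophages, had the same 5 HF pigs at the top, in the same order, from 0.33 down to -1.29, and a difference of 0.84 ± 0.35 (SE), P = 0.0220. BGN, biglycan, a matrix proteoglycan, ran from -2.12 to 0.71 (median -1.16) in HF pigs and from -2.40 to -0.90 (median -1.92) in LF pigs, a difference of 0.90 ± 0.31 (SE), P = 0.00491, and its call ended without HF replicates 5, 11 or 10. HF replicates 5, 11, 10 and 3 were again its 4 highest HF pigs, as they were for EPOR, the erythropoietin receptor. Of the 19 monocyte genes 13 were higher, with a median of 0.052 (0.018 without HF replicate 2). CD5L was the only member with P under 0.05, against 1.48% of all genes higher at that P. CD5L was also given for diet by the study on these same samples.

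C4BPA, a chain of the complement regulator C4b-binding protein, was higher with the HF diet by 0.68 ± 0.22 (SE), P = 0.00334, with values from 0.37 to 2.07 (median 0.93) in HF pigs and from -0.20 to 1.09 (median 0.24) in LF pigs. All 12 HF pigs lay above the LF median. Its 5 probes disagreed, with differences from 0.03 to 1.15, and 1 of them passed the criterion. The call of C4BPA ended without HF replicate 5 (P = 0.0102). REXO2, an exonuclease that degrades short RNA fragments in mitochondria, had the lowest P of the genes named here. It ran from 1.1 to 1.94 (median 1.44) in HF pigs and from 0.56 to 1.65 (median 1.09) in LF pigs, and all 12 HF pigs lay above the LF median. The difference was 0.44 ± 0.12 (SE), P = 0.000822, an FC of 1.36, both probes passed, and the highest P with a pig left out was 0.00248.

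Genes of red cell precursors were higher in mean with the HF diet in 29 of 31 measured, with a median of 0.27, where 54.0% of all genes were higher. Of the 31, 5 were higher and 1 lower at P under 0.05, against 1.48% and 1.3% of all genes. Among the 5, KLF1, EPOR and PLEK2 were given for diet by the study on these same samples, so that this count is partly fixed by that choice. KLF1, the transcription factor that drives globin and other erythroid genes, was the member past the criterion. It ran from -0.37 to 0.73 (median 0.28) with the HF diet and from -0.89 to 0.087 (median -0.37) with the LF diet, and 9 of 12 HF pigs lay above the highest LF pig. Its difference was 0.57 ± 0.18 (SE), P = 0.00214, an FC of 1.48, and it was kept with each pig left out. EPOR was higher by 0.54 ± 0.20 (SE), P = 0.0106, PLEK2, a pleckstrin of red cell precursors, by 0.47 ± 0.20 (SE), P = 0.0235, SLC25A37, a mitochondrial iron importer, by 0.24 ± 0.11 (SE), P = 0.0401 and SLC4A1, the band 3 anion exchanger, by 0.26 ± 0.10 (SE), P = 0.0152. The probes of SLC4A1 disagreed, with -0.05 and 0.57. SLC25A38, the glycine carrier of heme synthesis, had -0.14 ± 0.071 (SE), P = 0.0499.

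In contrast, the hemoglobin genes differed little in mean. HBA had -0.02 ± 0.062 (SE), P = 0.748, HBB 0.082 ± 0.15 (SE), P = 0.589, and ALAS2, the first enzyme of heme synthesis in red cells, 0.27 ± 0.21 (SE), P = 0.211. Single pigs moved the erythroid list: 3 genes had a higher mean at P under 0.05 without HF replicate 6, the pig with the highest list mean at 0.65, with a median of 0.21, and 14 without LF replicate 10, with a median of 0.34. NCOA4, the receptor that delivers ferritin to lysosomes for iron release, was past the criterion at 0.52 ± 0.19 (SE), P = 0.00984, which was kept in 9 of the 24 comparisons with a pig left out. On the list means, HF pigs ran from -0.35 to 0.65 with a median of 0.16 and LF pigs from -0.82 to 0.31 with a median of -0.04, and the lowest values were those of LF replicates 11 and 9, at -0.82 and -0.60, the arrays that stood apart. Of 18 cell cycle genes 18 had a higher mean with the HF diet, with a median of 0.14, and 4 had P under 0.05, against 1.48% of all genes higher at that P: UBE2C at 0.29, CENPF at 0.21, AURKB at 0.19 and AURKA at 0.14. Without LF replicate 6, 0 of the 18 had a higher mean at P under 0.05. Platelet genes had a median of 0.12, 11 of 14 higher and 0 with P under 0.05, and PPBP differed by 0.17 (P = 0.377).

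**Figure D2:**
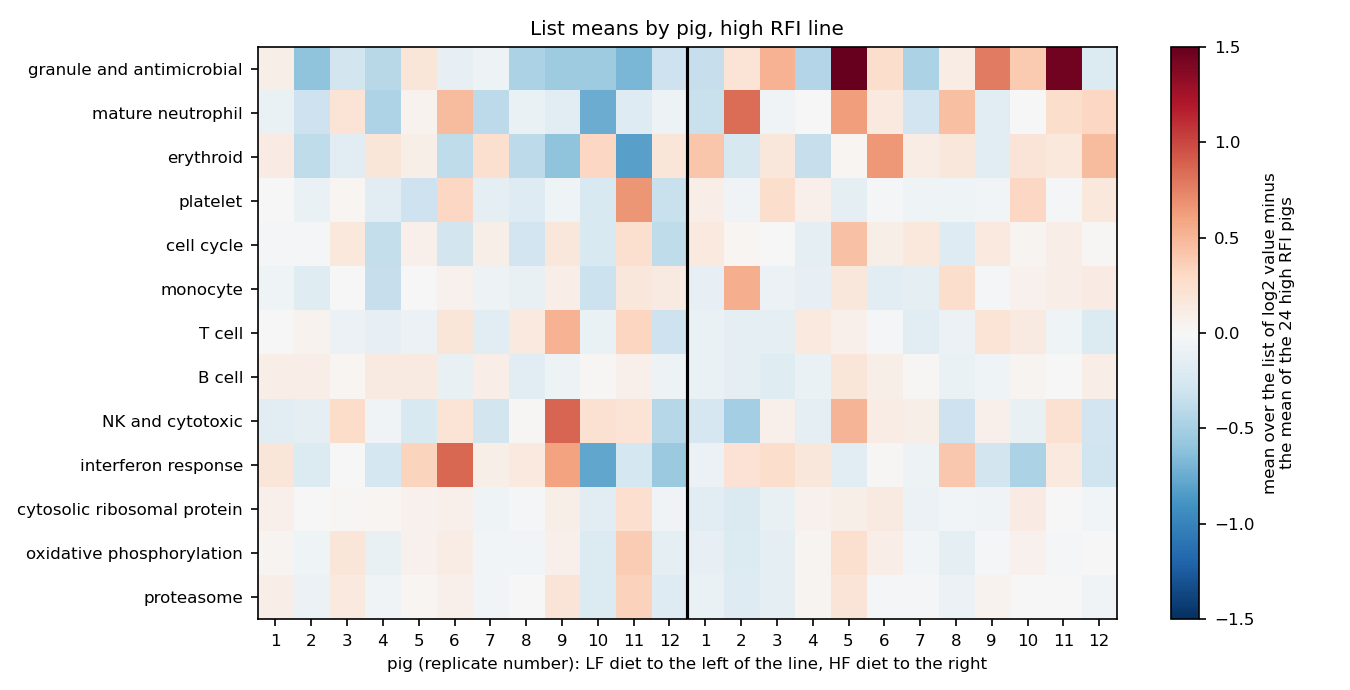
Mean of each gene list in each of the 24 high RFI pigs, as the log2 value minus the mean of the 24 pigs, with LF pigs to the left of the line and HF pigs to the right. The granule list reaches 1.5 and 1.44 in HF replicates 5 and 11, and the erythroid list is lowest, at -0.82, in LF replicate 11.

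Among the 12 genes underexpressed with the HF diet, C1R had the largest difference. C1R, a protease of the first complement component, ran from -0.86 to 1.16 (median 0.24) in HF pigs and from -0.62 to 1.35 (median 0.72) in LF pigs, and 11 of 12 HF pigs lay below the LF median. The difference was -0.58 ± 0.19 (SE), P = 0.00337, an FC of -1.49, and was -0.15, -0.85 and -1.32 on scan days 1, 2 and 3. It no longer passed without HF replicate 4 (P = 0.0104). LAP3, a leucine aminopeptidase induced by interferon, ran from 1.62 to 2.41 (median 2.07) in HF pigs and from 1.81 to 3.24 (median 2.43) in LF pigs, and all 12 HF pigs lay below the LF median. Its difference of -0.43 ± 0.14 (SE), P = 0.00277 was close to -0.39, -0.49 and -0.45 on the 3 scan days and passed with each pig left out.

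The differences of the other 10 were smaller. DHX37, an RNA helicase of ribosome assembly, differed by -0.36 (P = 0.00581), ARHGEF16, a guanine nucleotide exchange factor, by -0.31 (P = 0.00726), MYLIP by -0.30 (P = 0.00657), C18ORF8 by -0.28 (P = 0.00853), KYAT3, a kynurenine aminotransferase, by -0.25 (P = 0.00525) and GHDC by -0.25 (P = 0.00756). CAMK2D, a calmodulin-dependent kinase, differed by -0.23 (P = 0.00610), MED24, a Mediator subunit, by -0.22 (P = 0.00661), C10ORF25 by -0.17 (P = 0.00743) and FOXK2, a forkhead factor, by -0.15 (P = 0.00373). For LAP3, CAMK2D and FOXK2, 12 of 12 HF pigs were below the LF median. The probes of FOXK2 disagreed, with -0.26 (P = 0.00751 by limma) and -0.037 (P = 0.600). The call was kept in 9 of the 24 comparisons with 1 pig left out for C18ORF8, 12 for C10ORF25, 13 for GHDC, 15 for ARHGEF16 and MED24, 17 for DHX37 and 20 for KYAT3, CAMK2D and FOXK2. Among the pigs whose removal ended a call were LF replicates 9 and 11, the arrays that stood apart: either of them for DHX37, ARHGEF16, C18ORF8, GHDC, MED24 and FOXK2, LF replicate 9 for MYLIP, CAMK2D and C10ORF25, and LF replicate 11 for KYAT3. CAMK2D was tight in HF pigs, from 0.82 to 1.04 (median 0.96), and ran from 0.84 to 2.19 (median 1.11) in LF pigs, and its difference was -0.14 without LF replicate 1, where the call ended. Of the 12 genes, 11 had a lower mean on each of the 3 scan days, and the exception was C10ORF25, at 0.13 on day 3. For the 12 genes with the largest positive difference, the sign held on each day.

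Genes of fatty acid use were mixed. CPT1A, the carnitine acyltransferase that admits long-chain fatty acids to mitochondria, ran from -0.36 to 1.48 (median 0.23) with the HF diet and from -0.44 to 0.36 (median -0.083) with the LF diet, and 11 of 12 HF pigs lay above the LF median. The difference was 0.37 ± 0.12 (SE), P = 0.00463, an FC of 1.29, and 0.45, 0.31 and 0.22 on the 3 scan days. At its probes it ran from 0.22 (P = 0.104 by limma) to 0.47 (P = 0.0102), and only the probe at 0.43 (P = 0.00164) passed the criterion. The highest pig was HF replicate 2 at 1.48, without which P was 0.0150, and the call also ended without LF replicate 7. SLC25A20, the acylcarnitine carrier that acts after CPT1A, differed by 0.27 (P = 0.0421), with 1 of its probes well above background on 20 of 24 arrays, and ACSL1, an acyl-CoA synthetase, by 0.29 (P = 0.0492). With FABP4, these were the 4 of 36 genes of oxidation and PPAR targets with P under 0.05, all higher, against 1.48% of all genes. CPT1A among the 4 was given for diet by the study on these same samples. The list had 20 of 36 higher and a median of 0.017 (0.0062 to 0.031 with 1 pig left out, LF replicates 3 and 1), near the 0.012 of all genes.

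The acetyl-CoA carboxylases were apart. ACACB, the mitochondrial isoform whose product malonyl-CoA inhibits CPT1, ran from -1.72 to -0.71 (median -1.39) in HF pigs and from -2.14 to -1.35 (median -1.60) in LF pigs, a difference of 0.37 ± 0.11 (SE), P = 0.00218, and passed with each pig left out. ACACA, the cytosolic isoform of fatty acid synthesis, differed by -0.16 ± 0.064 (SE), P = 0.0161, with 10 of 12 HF pigs below the LF median. DGAT2, which makes triglycerides, differed by 0.42 ± 0.16 (SE), P = 0.0129, and HF replicate 2 was again highest at 2.56. Of 24 genes of fatty acid synthesis and storage, 14 were higher and the median was 0.027 (0.013 without LF replicate 10). SREBF1, the transcription factor of lipogenesis, differed by 0.0008 ± 0.10 (SE), P = 0.994, a mean of 4 probes that disagreed, from -0.28 (P = 0.00787, past the criterion) to 0.26.

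Of 23 genes of cholesterol synthesis, uptake and export, 11 were higher, the median was -0.0089 (0.029 without HF replicate 3), and 3 had P under 0.05, each lower with the HF diet, against 1.3% of all genes. These 3 were NR1H3 and the LXR targets ABCA1 and MYLIP. ABCA1 ran from 0.55 to 2.83 (median 1.39) in HF pigs and from 1.01 to 2.59 (median 1.90) in LF pigs, with 10 of 12 HF pigs below the LF median, and differed by -0.48 ± 0.19 (SE), P = 0.0170. MYLIP ran from -0.038 to 0.89 (median 0.58) in HF pigs and from 0.45 to 1.24 (median 0.79) in LF pigs, with 11 of 12 HF pigs below the LF median, and differed by -0.30 ± 0.11 (SE), P = 0.00657. NR1H3 differed by -0.21 ± 0.10 (SE), P = 0.0298. The MYLIP call ended when any of 8 single pigs was left out, with P = 0.0195 without HF replicate 3.

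**Figure D3:**
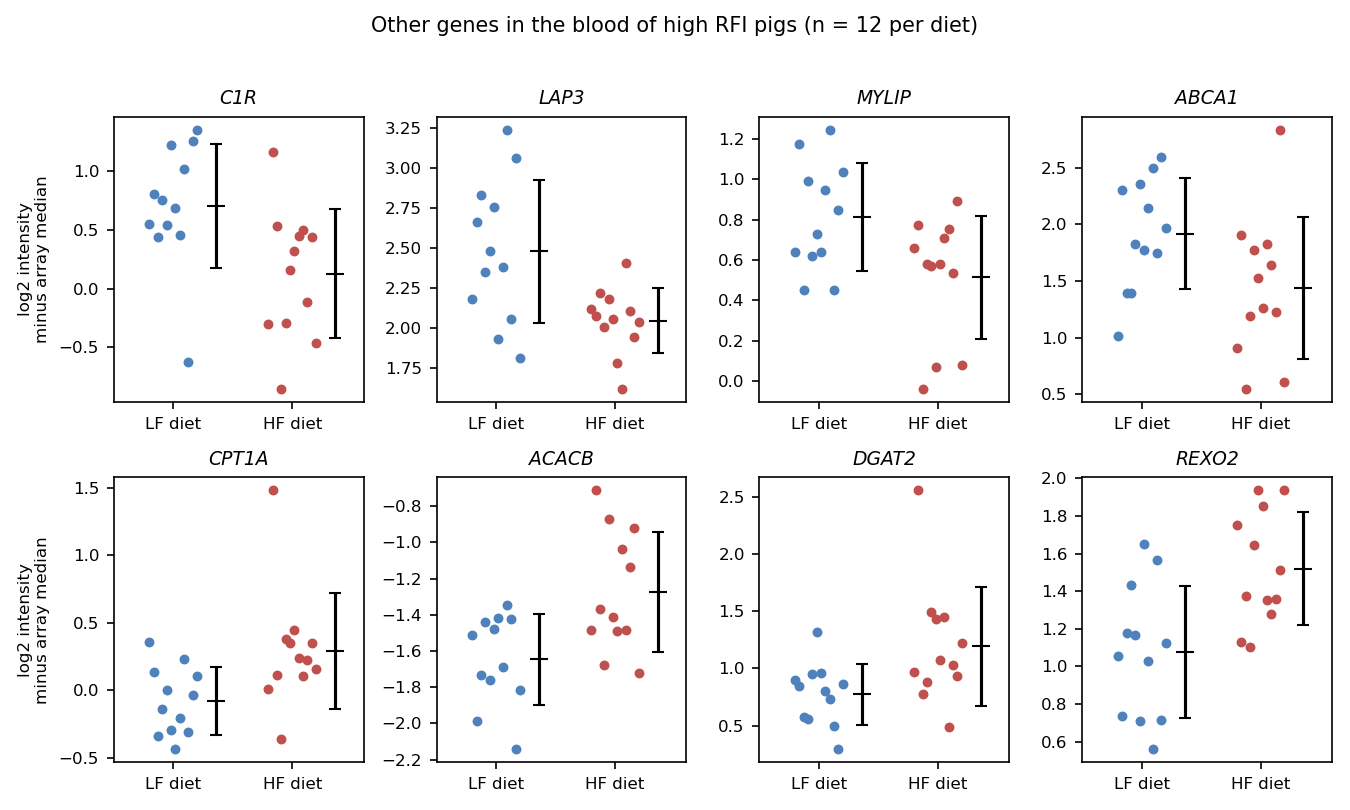
Log2 intensity minus the array median for 8 genes outside the granule group in each high RFI pig, 12 per diet, with the mean and SD of each group. C1R, LAP3, MYLIP and ABCA1 have lower means and CPT1A, ACACB, DGAT2 and REXO2 higher means with the HF diet, and CPT1A and DGAT2 are each highest in HF replicate 2, at 1.48 and 2.56.

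The T cell list had 15 of 18 genes lower and a median of -0.064, with 0 at P under 0.05, where 2.78% of all genes were. Without LF replicate 9 its median was 0.0029, and this pig was among the 2 highest LF pigs in 12 of the 18 genes. CD3E, the T cell receptor subunit, differed by -0.10 (P = 0.328) and CD8B, the co-receptor of cytotoxic T cells, by -0.17 (P = 0.199). The NK and cytotoxic list had 14 of 18 lower, a median of -0.12 and 0 at P under 0.05, and its median was -0.039 without LF replicate 9. NKG7 of cytotoxic granules differed by -0.21 (P = 0.265) and KLRB1, the receptor CD161, by -0.34 (P = 0.123). Of 16 B cell genes 11 were lower, and 2 had P under 0.05, against 1.3% of all genes lower: BLNK, the B cell linker of receptor signalling, at -0.20 (P = 0.0258) and STAP1, an adaptor of B cell receptor signalling, at -0.23 (P = 0.0286). CD79A, part of the B cell receptor, differed by -0.022 (P = 0.837) and MS4A1, CD20, by 0.11 (P = 0.282). Medians were -0.0034 for MHC class II genes, with 3 of 9 higher, and -0.014 for 3 genes of eosinophils, basophils and mast cells. Both took either sign with 1 pig left out, from -0.052 without HF replicate 5 to 0.016 without LF replicate 1 and from -0.088 without HF replicate 9 to 0.072 without HF replicate 8.

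The interferon response list had 18 of 28 lower with a median of -0.073, 0 at P under 0.05, where 2.78% of all genes were, and a median of 0.0014 without LF replicate 9. OAS1, an antiviral synthetase, was higher by 0.84 ± 0.54 (SE), P = 0.124, with LF pigs spread from -1.40 to 5.18 (median 4.21), and CXCL10, a chemokine induced by interferon, had -0.52 ± 0.37 (SE), P = 0.162. Of 21 inflammatory genes 14 were higher with a median of 0.023, which was -0.0050 without LF replicate 4, and 2 had P under 0.05, against 1.48% of all genes higher at that P. IL1A, the cytokine interleukin 1 alpha, and IL6R, the interleukin 6 receptor, were these, at 0.30 (P = 0.0367) and 0.15 (P = 0.0486).

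Ribosome, respiratory chain and proteasome genes had small negative medians, also on background-corrected and quantile normalized signals (-0.063 to -0.040 for the cytosolic ribosomal proteins). Cytosolic ribosomal proteins were lower in 62 of 75 genes with a median of -0.054, mitochondrial ribosomal proteins in 46 of 59 with -0.054, oxidative phosphorylation in 54 of 70 with -0.052 and the proteasome in 39 of 45 with -0.056. In these lists 2 genes were lower and 1 higher at P under 0.05, against 1.3% and 1.48% of all genes, and the 1 of 75 cytosolic ribosomal genes is a share near that background: RPL14 of the large ribosomal subunit at -0.22 (P = 0.0235), where 1 of 7 probes stood at -0.58 and the others from -0.21 to -0.11, PSME2, the interferon-induced activator subunit, at -0.22 (P = 0.0222), and PSMD4, a ubiquitin receptor of the proteasome, at 0.21 (P = 0.0212) in the opposite direction. With LF replicate 11 left out these 4 medians were -0.034, -0.015, -0.014 and -0.028.

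Lists of glycolysis (median -0.011, 11 of 23 higher), short-chain fatty acid receptors and transport (median 0.062, 5 of 8 higher), circadian clock and glucocorticoid response (median -0.015, 7 of 18 higher), antioxidant enzymes (median 0.046, 16 of 28 higher) and heat shock proteins (median -0.015, 9 of 19 higher) had small medians, each moved by more than 1.5 times by leaving out 1 pig, within -0.040 to 0.085. Their members with P under 0.05, a share near the 2.78% of all genes, were ENO1, the glycolytic enzyme enolase, at -0.25 (P = 0.0477) and PER1, a clock gene induced by glucocorticoids, at -0.33 (P = 0.0396), which was -0.19 (P = 0.142) without LF replicate 9. FFAR2, the receptor for the short-chain fatty acids that fermentation of fiber yields, differed by 0.32 (P = 0.0695).

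**Figure D4:**
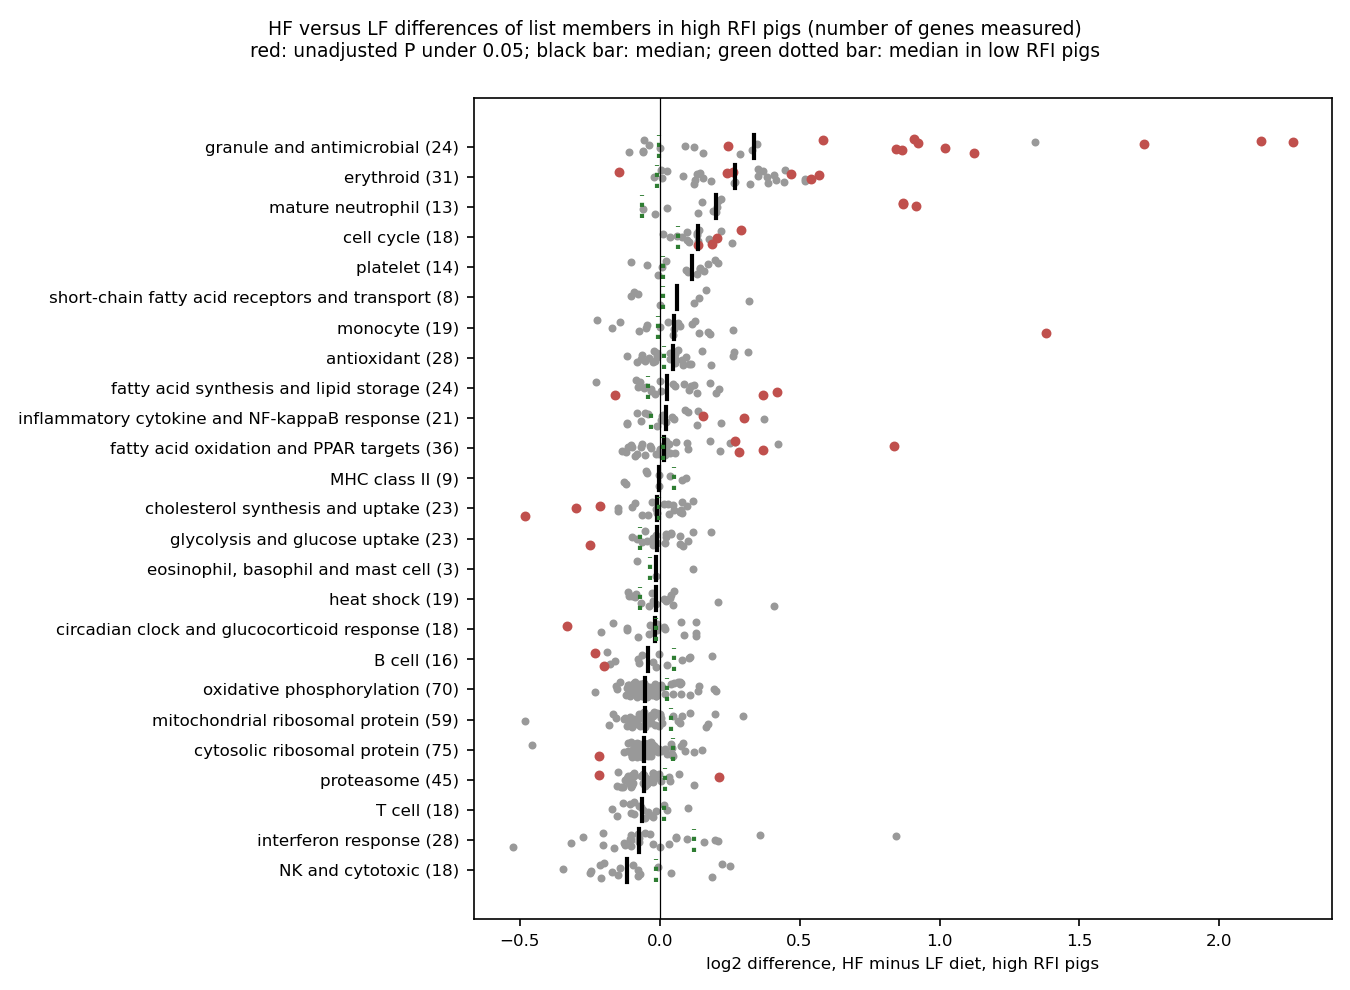
Log2 difference between HF and LF high RFI pigs for each measured gene of 25 lists, with the number of genes in brackets. Red points have an uncorrected P under 0.05, black bars are list medians and green dotted bars the medians in low RFI pigs. The granule list has the highest median, 0.34, and the NK and cytotoxic list the lowest, -0.12.

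The diet list held 19 genes, a part of those given in the study for diet over both lines. They were chosen on these same samples, so that their direction in high RFI pigs is no independent evidence. Of 18 measured, 15 had a higher mean with the HF diet, 13 had P under 0.05, all higher, against 1.48% of all genes, and 10 passed the criterion, against 0.276%. Another list, a part of the genes given for the interaction of line and diet, was also chosen on these samples. Of its 57 measured genes, 21 had a higher mean with the HF diet in high RFI pigs, 6 were higher and 12 lower at P under 0.05, against 1.48% and 1.3% of all genes, and the median was -0.059. Beside LCN2, EPOR and PLEK2, given above, 5 members of the diet list did not pass in high RFI pigs. SHISA2 had 0.26 (P = 0.0570) in high RFI and 0.44 (P = 0.00219) in low RFI pigs. NOC4L had 0.087 and 0.20 (P = 0.285 and 0.0172). NTPCR, a nucleoside triphosphatase, had -0.059 and -0.45 (P = 0.642 and 0.000988), RAE1, an RNA export factor, -0.023 and -0.25 (P = 0.742 and 0.000849), and PSAP, the saposin precursor, -0.069 and -0.23 (P = 0.425 and 0.0108).

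In low RFI pigs, 12 fed each diet, the same comparison passed the criterion for 70 probes (0.189%) and 28 genes (0.276%), with 0 after adjustment, and 500 probes (1.35%) and 166 genes (1.64%) had P under 0.05. Of the 40 genes DE in high RFI pigs, 0 passed the criterion in low RFI pigs and 2 had P under 0.05 there. Among the 28 higher genes 22 were also higher in low RFI pigs, and among the 12 lower genes 2 were also lower. The 40 were selected for their size in high RFI pigs, so that a larger size there, as found in 40 of 40, is fixed by the choice. The difference between lines was tested as an interaction. At P under 0.01 it called 98 probes (0.264%) and 25 genes (0.246%), with 0 after adjustment by limma, 847 probes (2.28%) and 246 genes (2.42%) at P under 0.05, and a lowest adjusted P of 0.88 over genes.

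For PMAP-23, PR39, PGLYRP1 and HP the interaction did not pass P under 0.05. In the granule list 2 of 24 genes passed it and in the mature neutrophil list 2 of 13, against 2.42% of all genes. PMAP-23 differed by 0.74 in low RFI pigs, with an interaction P of 0.146, PR39 by 0.84 (P = 0.231), PGLYRP1 by 0.36 (P = 0.176) and HP by 0.20 (P = 0.104). CPT1A had differences of the same sign in both lines, 0.37 and 0.29, and the interaction estimate was 0.076 ± 0.18 (SE). REXO2 had 0.066 in low RFI pigs with an interaction P of 0.0366, C4BPA -0.06 with 0.0215, C1R 0.071 with 0.0180 and LAP3 0.031 with 0.0207. These genes were among the 40 chosen by the contrast in high RFI pigs, which the interaction shares. Low interaction P values are favoured by that choice, and 18 of the 40 were under 0.05, against 2.42% of all genes. The medians of the granule, mature neutrophil and erythroid lists were -0.0029, -0.064 and -0.01 in low RFI pigs, and the cytosolic ribosomal proteins had 0.048. Whether these medians differ between the lines was not tested.

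Among the genes named here, those with the lowest interaction P had differences of opposite sign in the lines. STAP1 had -0.23 in high RFI and 0.29 in low RFI pigs (interaction P = 0.000816). Its means were -0.12 ± 0.27 (SD, n = 12) and 0.12 ± 0.30 in high RFI pigs fed the HF and LF diet. C10ORF25 had -0.17 and 0.13 (interaction P = 0.00113), SLC4A1 0.26 and -0.22 (0.00204), LGALS3, the lectin galectin 3 of macrophages, 0.35 and -0.43 (0.00362) and MYLIP -0.30 and 0.14 (0.00481). The adjusted P of each was 0.88.

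**Figure D5:**
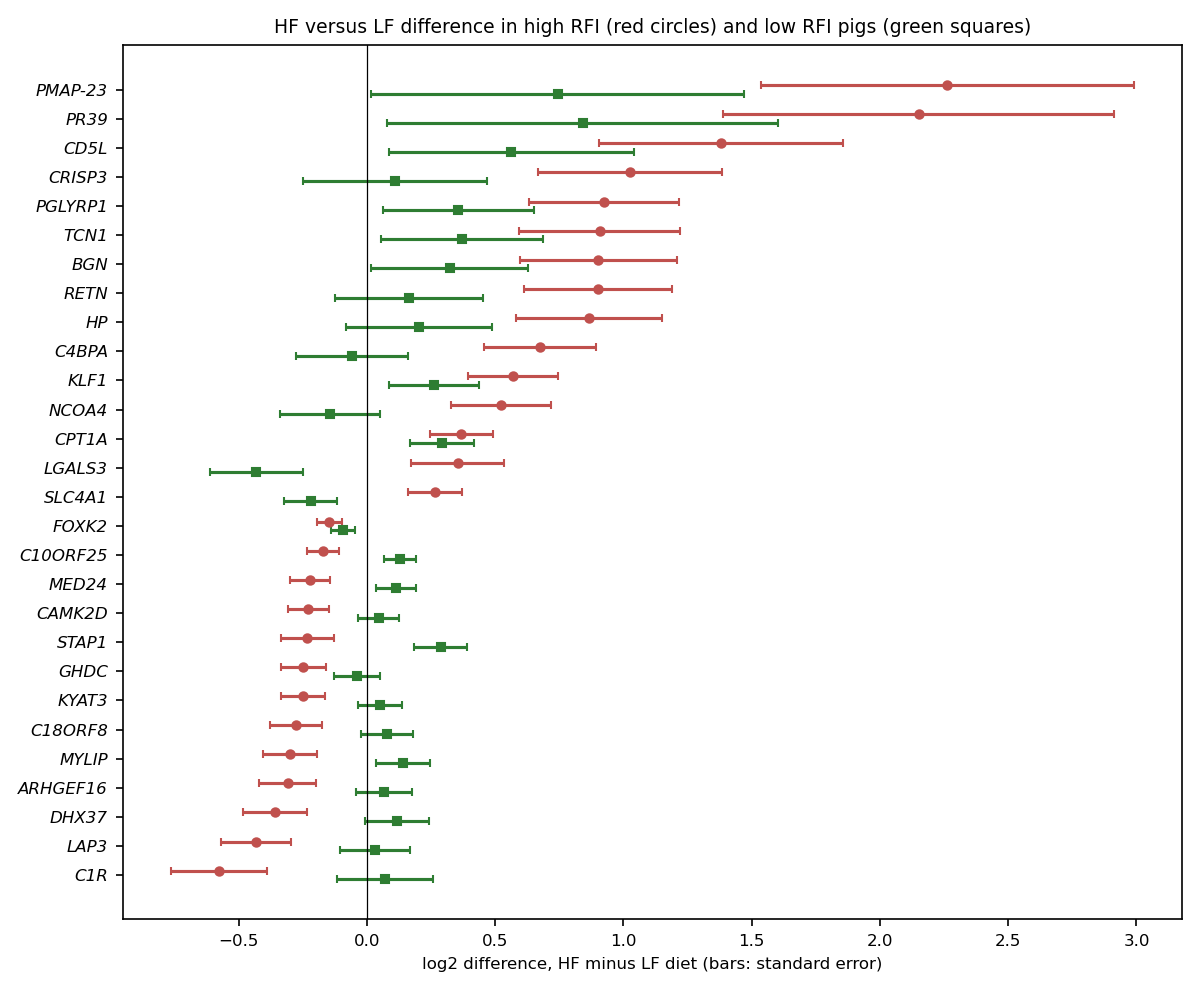
Log2 difference between HF and LF pigs, with its standard error, in high RFI (red circles) and low RFI pigs (green squares) for the 24 genes named for their size and for STAP1, LGALS3, SLC4A1 and CPT1A. The difference in PMAP-23 is 2.26 in high RFI and 0.74 in low RFI pigs, and that in C1R -0.58 and 0.071.

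The probe with the lowest P of all, A_72_P010271, had no gene symbol. It is 1 of the 49 unnamed probes past the criterion and is shown because no named gene came as close to passing adjustment. Its first 30 bases are:
A_72_P010271: tgcagagaagaatgcactttgccagaaatg
It ran from -0.84 to 1.0 with a median of -0.16 in HF pigs and from 0.038 to 2.27 with a median of 1.29 in LF pigs, and 10 of 12 HF pigs lay below the lowest LF pig. The difference was -1.33 ± 0.26 (SE), an FC of -2.52, with P = 4.35e-06 and an adjusted P of 0.161 by limma. In low RFI pigs the means were 1.40 ± 0.69 (SD, n = 12) with the HF diet and 1.42 ± 0.69 with the LF diet, and the interaction P was 0.000719. The probe was chosen by the contrast in high RFI pigs, which the interaction shares, so that a low interaction P is favoured by that choice. Over all probes the lowest adjusted interaction P was 0.902 by limma. Of the groups of line and diet, the high RFI pigs fed the HF diet had the lowest mean. With 1 pig left out at a time the adjusted P ran from 0.0368, without HF replicate 8, to 0.594, and it was also under 0.05 without LF replicate 4 or LF replicate 12.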

How the data were processed

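Whole blood RNA of 48 pigs was hybridised on single-colour Agilent porcine arrays. The deposited log2 values were made by the authors as the log2 of the median spot intensity minus the array median over 37113 retained spots, per the methods (R 3.0.2 in the submitters' processing notes). The deposited scanner files hold the intensity of each spot, from which 47 of the 48 columns were reproduced and the column of HF replicate 1, which the deposited values did not give, was rebuilt. For 20870 probes a gene symbol was found, giving 10151 genes as means of their probes. The authors had left out 23193 spots.

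The group means model was fitted over the 48 pigs with limma 3.58.1 in R 4.3.3, with the contrast of HF and LF within high RFI pigs, the same within low RFI pigs and their difference, and P-values were adjusted by Benjamini-Hochberg over all probes or genes. Figures were drawn with matplotlib 3.10.9, and pandas 2.3.3, scipy 1.17.1 and numpy 2.4.6 in Python 3.11.15 made the summaries. DE was defined as in the methods, at an uncorrected P under 0.01 and an FC above 1.1, and an FC below 1 is given as its inverse with a minus sign. The precision is limited by 12 pigs per group, and the quality of an array was read as its signal over local background, 7.80 to 16.0 in the high RFI arrays.

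Genes chosen for naming were the 12 with the largest difference each way past the criterion, the diet list of the study, in each list the members with P under 0.05 or otherwise up to 3 with the largest differences and the defining markers, STAP1 and LGALS3, and the 10 with the lowest interaction P. Some of these genes, such as CDYL, PDLIM7 and SERPINB1, are not described. The pigs and the gene lists were chosen with earlier results of these data known. The fit was tested on simulated data for this contrast over 10151 genes, where 76 of 100 changes of 0.5 and 98 of 100 changes of 1 on the log2 scale were recovered at an adjusted P under 0.05, with 9 false calls. In the simulation each gene varied independently with a normal spread, and all changes were planted at once. In the real arrays single pigs moved many genes together, so these shares cannot be carried over to them. Alternatives were another background correction (normexp with an offset of 50), the 75th percentile, filters, blocks for slide, scan day and replicate number, the high RFI pigs alone, single scan days and each pig left out, the last added after the data were seen.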

Additional observations from a re-analysis of the deposited data

Results flagged for a closer look

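For 14 of the genes named the interaction of line and diet had an uncorrected P under 0.01 by limma, which 0.246% of all genes had, and the adjusted P of each was 0.88. Of these genes, 10 were named for the lowest interaction P, so that their passing was fixed by that choice, and PSMD4, SLC39A11 and TADA2A came from the list given for the interaction on these same samples. The values here are the difference between HF and LF pigs in the high RFI line minus that in the low RFI line, on the log2 scale. It was positive for LGALS3 at 0.79, EDARADD, an adaptor of ectodysplasin receptor signalling, at 0.56, SLC4A1 at 0.48, ARAP3, a phosphoinositide-dependent GTPase activator, at 0.36 and PSMD4 at 0.35. It was negative for STAP1 at -0.52, DHX37 at -0.48, SLC39A11, a zinc transporter, at -0.45, MYLIP at -0.44, SMAGP, a small membrane glycoprotein, at -0.41, TADA2A, a subunit of histone acetyltransferase complexes, at -0.39, MED24 at -0.33, ARHGAP17, a GTPase activator, at -0.33 and C10ORF25 at -0.30. DHX37, MYLIP, MED24 and C10ORF25 were also among the 12 genes underexpressed with the HF diet in high RFI pigs, which chose them by a contrast that the interaction shares.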

How the results depend on the processing

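Replicate numbers were not taken as pairs: 8 of 12, not every, same-numbered pair had correlated deviations above 0.1 (-0.44 to 0.60), and 5 of 12 correlated best with their own number. Same-numbered pigs also shared a slide, and the median correlation was 0.33 for the same number, 0.16 for another number on the same slide and -0.045 for another slide. With a replicate block, 259 probes (121 higher) and 79 genes (37 higher) passed the criterion, and 211 probes and 63 genes the interaction. Within scan days 1, 2 and 3, 89, 52 and 76 probes and 29, 13 and 27 genes passed, with 30, 47 and 42 probes and 9, 15 and 9 genes for the interaction. The interaction called 38 and 41 genes on background-corrected signals centred on the median and the 75th percentile, and 40 genes each with slide and scan day as a block. With all non-control spots 139 of 193 probes were higher. With 1 pig left out, 82 to 263 probes and 21 to 63 genes passed, 0 to 1 probes and 0 genes passed an adjusted P of 0.05, and the interaction called 64 probes (without HF replicate 8) to 132 (without LF replicate 10) and 17 genes (without HF replicate 1) to 38 (without HF replicate 5 or LF replicate 10).

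Within scan day 3, list medians were 0.74 for granule, -0.64 for eosinophil, -0.11 for short-chain fatty acid, -0.051 for antioxidant and -0.11 for heat shock genes and 1.02 for the diet list of the study. The short-chain fatty acid list was at -0.079 over probes well above background. With HF replicate 1 as deposited, 14 probes and 7 genes passed the interaction, and medians were 0.23 for monocyte, 0.21 for eosinophil, 0.22 for inflammatory, 0.23 for fatty acid oxidation, 0.22 for fatty acid synthesis, 0.13 for cholesterol, 0.26 for short-chain fatty acid, 0.20 for clock, 0.084 for heat shock, 0.19 for the interaction list and -0.34 for cytosolic ribosomal genes. That setting holds a column with 1 repeated value; elsewhere the cause was not tested.

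Of 447 values of 28 genes chosen for naming and past the criterion, 311 kept direction and criterion, 133 kept direction and 3 turned. The 3 were C10ORF25 on day 3 and C10ORF25 and FOXK2 with the deposited column. The 28 include ANP32E, not described above, which differed by 0.29 to 0.35 with 1 pig left out and passed in 24 of 24 such comparisons. Over all named genes, most of the others not past the criterion, the turned values were 0.0047 for NTPCR and 0.14 for PSAP on day 1, 0.029 for RAE1 and -0.074 for ACSL1 on day 2, and 0.13 for C10ORF25, 0.21 for NTPCR, 0.053 for SLC25A38, 0.093 for PER1, 0.065 for CSAD and -0.051 for ARAP3 on day 3. With the deposited column they were 0.028 for C10ORF25, 0.030 for FOXK2, 0.22 for NTPCR, 0.21 for RAE1, 0.041 for PSAP, 0.030 for STAP1, 0.14 for ACACA, 0.035 for NR1H3, 0.15 for CSAD and 0.036 for HERC2, and with the brightest probe -0.046 for SLC4A1 and -0.025 for SLC25A37. CD5L, SLC25A20, FABP4 and EPOR each had a probe not well above background on 2 to 4 arrays.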
